A study of Mus musculus with 13 samples.

Results

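Ier2, Ier3, Ier5, Ier5l, Zfp36, Zfp36l1, Zfp36l2, Btg1, Dusp1 and Klf6 are early response genes, and their levels were examined in mouse liver. The 10 genes were chosen by name after the deposited liver comparison had been seen, so the change on treatment that drew attention to them is not evidence and is not given here. Of the 10 genes, 8 were among the 11779 genes listed for the liver, and Ier3 and Ier5l were not among the listed genes. The liver libraries came from 3 Balb/c mice injected with a control antisense oligonucleotide (ASO) against firefly luciferase (Luc ASO) and from 3 Balb/c mice injected with a mix of ASOs against LL35 (LL35 ASO), a long non-coding RNA of hepatocytes. In both groups the ASOs were conjugated to GalNAc, a sugar that hepatocytes take up, and livers were collected on day 5 after injection. For the LL35 ASO livers the labels give 150 mg/kg for each ASO, whereas the study's methods describe their doses as totals of the mix. No dose was taken from the labels for the Luc ASO livers. The age and sex of the mice were not given in the sources used here. A further 3 Luc ASO and 4 LL35 ASO libraries of AML12, a mouse hepatocyte cell line, were collected on day 2 and are not analysed here.

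The level used for each gene was the authors' mean of normalized counts over the livers, which pools treated and control animals. It holds no value for a single mouse. No SD, no direction of change and no test between the groups could therefore be given, and the differences between genes described here have no replicate check. The knockdown of LL35 itself could not be checked from a pooled mean. Each mean is also that of whole liver, in which fewer cells of a type and less RNA per cell cannot be told apart.

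Early response genes are transcribed within minutes of a growth, stress or inflammatory signal, without the need for new protein, and many of their mRNAs are degraded soon after. In the liver they are known for a brief rise after partial hepatectomy and after the handling or digestion of the tissue. The proteins of the Zfp36 family bind AU-rich elements in the 3' UTR of target mRNAs and bring in the CCR4-NOT deadenylase complex, which shortens the poly(A) tail. Dusp1 is a nuclear phosphatase that inactivates MAP kinases, Btg1 is an antiproliferative protein that also contacts the deadenylase, and Klf6 is a zinc finger transcription factor. Ier2 and Ier5 belong to a family of small nuclear immediate early proteins.

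Sequences of the mRNAs are shown first because the Zfp36 proteins act through such elements, and because several members carry them in their own 3' UTR. The nonamer TTATTTATT, written with T for U as in the reference, is the site best known for binding of this family. Each line gives 30 bases of the annotated 3' UTR, 5' to 3', with the nonamer in capitals, or for Klf6 the 7-base core TATTTAT that it contains.
Zfp36: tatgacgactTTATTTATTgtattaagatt
Zfp36l1: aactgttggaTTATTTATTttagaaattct
Zfp36l2: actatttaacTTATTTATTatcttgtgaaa
Dusp1: gagctggtccTTATTTATTtaacacccccc
Klf6: gctacgtctctTATTTATgccttgaggact

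The nonamer was present in the 3' UTR of 4 of the 8 listed members, namely Zfp36, Zfp36l1, Zfp36l2 and Dusp1. Among all 11293 listed genes with an annotated 3' UTR it was found in 7.33%. Dusp1 held 2 copies and each of the Zfp36 genes held 1 copy. Zfp36, Zfp36l1 and Zfp36l2 thus carry in their own mRNA the letters that proteins of this family are known to bind, and whether the proteins do so in these livers was not measured.

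The shorter core TATTTAT was found in 5 of the 8 listed members, against 28.7% of all genes. Zfp36, Zfp36l1, Zfp36l2 and Dusp1 each held 3 copies and Klf6 held 2 copies. The pentamer ATTTA, the minimal AU-rich motif, was found in 7 of the 8 listed members, against 68.0% of all genes. Only for Ier2 did the annotated 3' UTR of 755 bases hold no ATTTA. Btg1 held 11 copies and Zfp36l1 held 9 copies.

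Long UTRs give more room for a match, so the density of the pentamer was also examined. The shares of genes with the nonamer or with TATTTAT were not corrected for the length of the UTR. Per kilobase of 3' UTR, Dusp1 held 5.80 ATTTA motifs, Zfp36l1 held 4.90 and Zfp36 held 3.88. The median over all genes was 1.30 per kilobase. Btg1, with the most copies, had 2.64 per kilobase in a 3' UTR of 4166 bases, and Ier5 had 0.93 per kilobase. The densest members were therefore Dusp1 and the Zfp36 genes Zfp36l1 and Zfp36, and Btg1 stood below them once length was taken into account. Zfp36l2, the other Zfp36 gene, was close to Btg1 at 2.74 per kilobase, and Klf6 had 2.25. A match of this kind describes the sequence and does not show that a protein is bound.

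**Figure D1:**
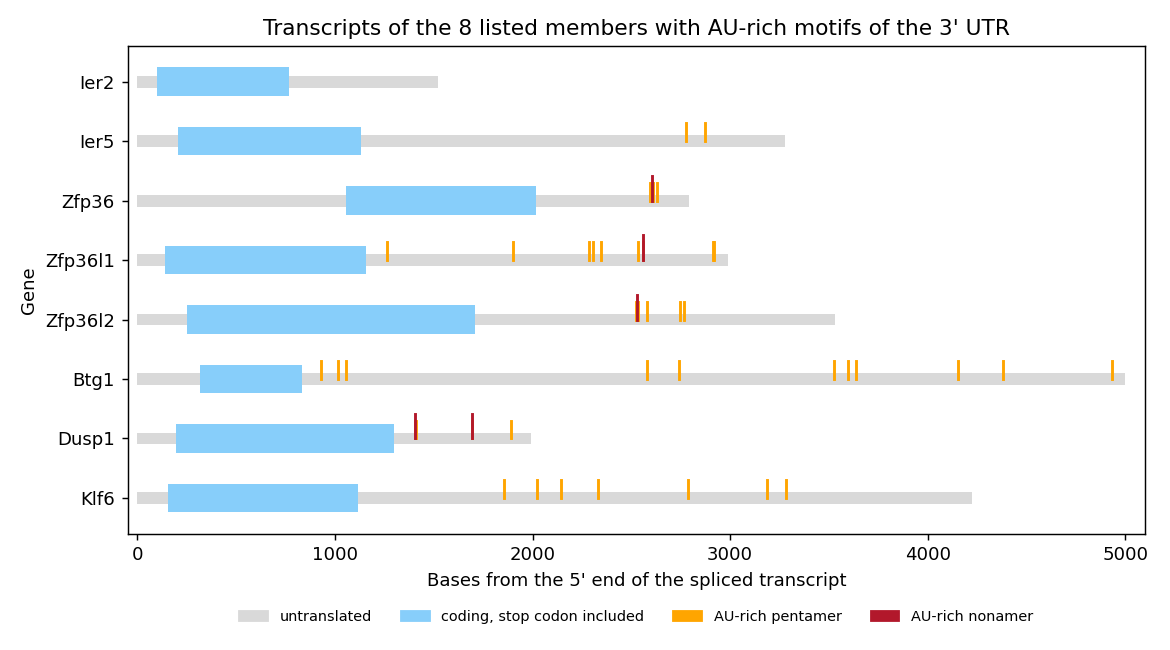
Spliced reference transcripts of the 8 listed members, drawn to scale in bases from the 5' end, with untranslated parts in grey and coding parts in blue. Short ticks mark the AU-rich pentamer in the 3' UTR and tall ticks the nonamer, which appears in Zfp36, Zfp36l1, Zfp36l2 and Dusp1, while Ier2 has no tick.

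The members have few exons, but their transcripts were not short. Transcript length ranged from 1522 bases (Ier2) to 5001 bases (Btg1), and the median of all genes was 3058 bases. In the GENCODE M21 annotation, Ier2 on chromosome 8 and Ier5 on chromosome 1 have a single exon each. Zfp36 on chromosome 7, Zfp36l1 on chromosome 12, Zfp36l2 on chromosome 17 and Btg1 on chromosome 10 have 2 exons, whereas Dusp1 on chromosome 17 and Klf6 on chromosome 13 have 4 exons. Thus 6 of the 8 listed members have 2 exons or fewer, as do 5.88% of the 11379 listed genes with a coding transcript, whose median is 9 exons. The coding part was short, with a median of 956 bases in the members and 1407 bases in all genes. The 3' UTR had a median of 1829 bases in the members and 1037 bases in all genes, but Ier2 (755 bases), Zfp36 (774 bases) and Dusp1 (690 bases) lay below the latter. Btg1 was the extreme case, since 83.3% of its transcript of 5001 bases is 3' UTR and 513 bases are coding.

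Next, the levels in the liver were compared. Counts rise with the length of a transcript, so genes are compared here by the mean normalized count per kilobase of annotated exons, and the percentile gives the place among the 11754 listed genes with a known length. On this scale 7 of the 8 listed members lay above the median of all genes (51.5 per kilobase), and 5 lay above the upper quartile (128 per kilobase). The median of the 8 listed members was 180 per kilobase, and 139 with Ier3 and Ier5l counted as lowest.

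Zfp36l1, one of the RNA decay factors, had the highest level, with a mean normalized count of 2199.55 and 736 per kilobase, at percentile 95.3. Ier2 followed with a mean normalized count of 783.86 and 515 per kilobase, and Zfp36, known as tristetraprolin, with 1466.31 and 423 per kilobase. These 3 genes lay above the 90th percentile of all genes, which was 341 per kilobase. By coding length Ier2 was at percentile 89.8. Dusp1 and Zfp36l2 formed the middle of the order, at 185 and 174 per kilobase and mean normalized counts of 611.93 and 615.07. Their levels differed by a ratio of 1.06 over the union of exons, and this closeness depended on the length used. Over the longest transcript Dusp1 had 265 and Zfp36l2 174 per kilobase, and by coding length 556 and 424. Whether they differ beyond the spread between mice could not be judged.

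Btg1 had a mean normalized count of 542.68 and 103 per kilobase, at percentile 69.8. Klf6 had a mean normalized count of 348.17 and 79.3 per kilobase, at percentile 63.0. Ier5 stood alone at the bottom, with a mean normalized count of 65.11 and 19.9 per kilobase, at percentile 24.2. The step from Klf6 down to Ier5 was a ratio of 3.99, the widest between neighbours in this order, and from the top to the bottom the members spanned a ratio of 37.0 per kilobase. Ier2 and Ier5, which belong to the same family and both have 1 exon, were 25.9 times apart on this scale and 16.8 times apart by coding length.

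**Figure D2:**
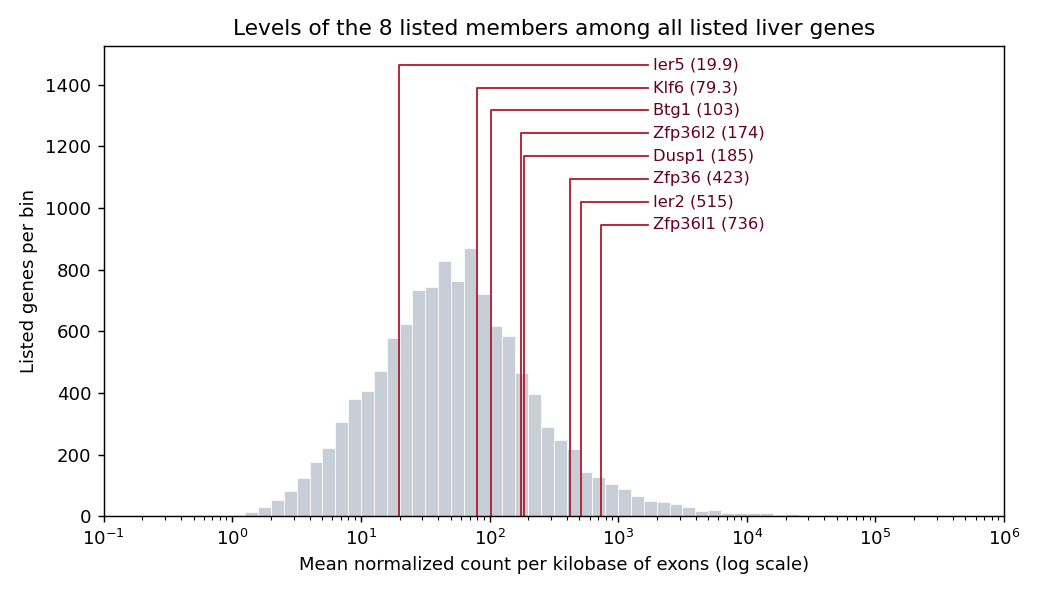
Number of listed genes (vertical axis) in bins of the mean normalized count per kilobase of exons (horizontal axis, log scale), with red lines at the level of each listed member. Zfp36l1, Ier2 and Zfp36 lie in the right tail and Ier5 lies left of the peak; no error bar can be drawn because a single pooled mean exists for each gene.

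Part of this order depends on which length is used. Ier2 was 1.22 times Zfp36 over the union of exons, 0.98 times over the longest transcript and 0.77 times over the coding sequence alone, so the order of these 2 genes was not fixed. Btg1 moved from rank 6 to rank 4 of 8 by coding length, at percentile 88.6. Its long 3' UTR is then left out of the length, but the count remains that of the whole gene. Levels by coding length are therefore raised for genes with a long 3' UTR, which also bears on the place of Btg1 in its family. Zfp36l1 remained at rank 1 and Ier5 at rank 8 under all 3 lengths.

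Within the Zfp36 family the order was Zfp36l1, Zfp36 and Zfp36l2 under all 3 lengths. Per kilobase of exons, Zfp36l1 was 1.74 times Zfp36, and Zfp36 was 2.43 times Zfp36l2. Zfp36l1 was 1.40 times Zfp36 over the longest transcript and 1.42 times by coding length. For Zfp36 the union of exons, 3470 bases, equals the genomic span of its coding transcript, intron included. That transcript has a 5' UTR of 1056 bases, and the order with a shorter 5' UTR was not tested. Of the exonic bases of Zfp36l1, 55.9% are covered on the opposite strand by Gm26669, a non-coding RNA that was not among the listed genes. The library kit keeps the strand, but the strand setting of the counting was not given in the sources used here, and the share of Zfp36l1 reads from that RNA was not tested. Antisense overlap covered 3.60% of Zfp36 and 2.98% of Zfp36l2. Of the 50-base words in the exons, matched on either strand, 54.4% in Zfp36l1 were shared with Gm26669 and a Zfp36l1 pseudogene. The share found in other genes was 4.21% in Zfp36, 1.61% in Zfp36l2 and 2.49% in Btg1. No word was shared in Ier2, Ier5, Dusp1 and Klf6. Words shared with an overlapping antisense gene, such as Gm26669, come from the overlap given above and are not a further copy in the genome. For Zfp36l2 the only match was such a gene. The part of the Zfp36l1 words due to the pseudogene was not separated.

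The genes examined for the CCR4-NOT complex, which the Zfp36 proteins bring in, were all listed. The 11 genes of the CCR4-NOT complex ranged from 32.1 per kilobase for Cnot4 to 143 for Cnot1, the scaffold of the complex, with a median of 74.0. Zfp36l1, Zfp36 and Zfp36l2 each lay above this whole range, but over the longest transcript Zfp36l2 exceeded 9 of the 11 genes and by coding length 7 of them. The 8 genes of other RNA-binding proteins, which include the AU-rich element binding proteins Elavl1, Hnrnpd, Khsrp and Tia1, ranged from 16.7 per kilobase for Tia1 to 345 for Ybx1, a binder of other RNA elements. Their median was 152 per kilobase, so Zfp36l1 and Zfp36 exceeded each of them and Zfp36l2 lay within their range. Over the longest transcript Zfp36 exceeded 7 of the 8.

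The mRNAs best known as targets of Zfp36 were mostly missing from the table. Of 11 such genes, 2 were listed, Cxcl1 (a neutrophil chemokine) at 220 per kilobase and Il1b at 15.3 per kilobase. Tnf, Il6, Il10, Cxcl2, Ccl2, Ccl3, Csf2, Ptgs2 and Ier3 were not among the listed genes, whose lowest mean normalized count was 15.6. Ier3 is thus both a member of the early response genes and a known target of Zfp36 that has no value here.

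Dusp1 ranked 2 of 8 among the listed MAP kinase phosphatases, with 185 per kilobase, below Dusp6 (304 per kilobase), which acts on ERK in the cytoplasm, and above Dusp16 (149 per kilobase); by coding length it ranked 3 of 8. The median of that list was 28.1 per kilobase, Dusp8 was lowest at 9.89, and Dusp2 and Dusp9 were not among the listed genes. The kinases that these phosphatases act on, listed together with Mapkapk2, had a median of 100 per kilobase. They ranged from 7.43 for Mapk11 to 293 for Mapk14, the p38 alpha kinase, and Mapk10 and Mapk13 were not among the listed genes. No test of these differences was possible.

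Btg1 was the lowest of the 4 listed BTG and TOB genes, at 103 per kilobase, but by coding length it ranked 3 of 4, above Tob2. Tob1, which also links deadenylases to mRNA, was highest at 523 per kilobase of exons, and Btg3 and Btg4 were not among the listed genes. Klf6 ranked 7 of 13 among the listed Kruppel-like factors, at the median of that list (79.3 per kilobase), and 6 of 13 by coding length. Klf15, a regulator of amino acid and glucose metabolism in liver, was highest at 774 per kilobase, and Klf16 was lowest at 15.8. Klf5, Klf8, Klf14 and Klf17 were not among the listed genes.

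Of 15 AP-1, Egr and related early transcription factors, 9 were listed, with a median of 89.9 per kilobase. Egr1, a zinc finger factor induced through serum response elements, had 598 per kilobase, between Zfp36l1 and Ier2. Nr4a1 was lowest at 23.3 per kilobase. Fosb, Fosl1, Egr2, Egr3, Nr4a2 and Nr4a3 were not among the listed genes. Serum response factor, its cofactors and Creb1, which act at the promoters of such genes, were all listed. Their median was 37.5 per kilobase, from 18.4 for Elk1 to 250 for Elk4, so the ranges of both lists overlapped. With the unlisted genes counted as lowest, the median of the early transcription factors was 29.3 per kilobase and the order of the medians turned.

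**Figure D3:**
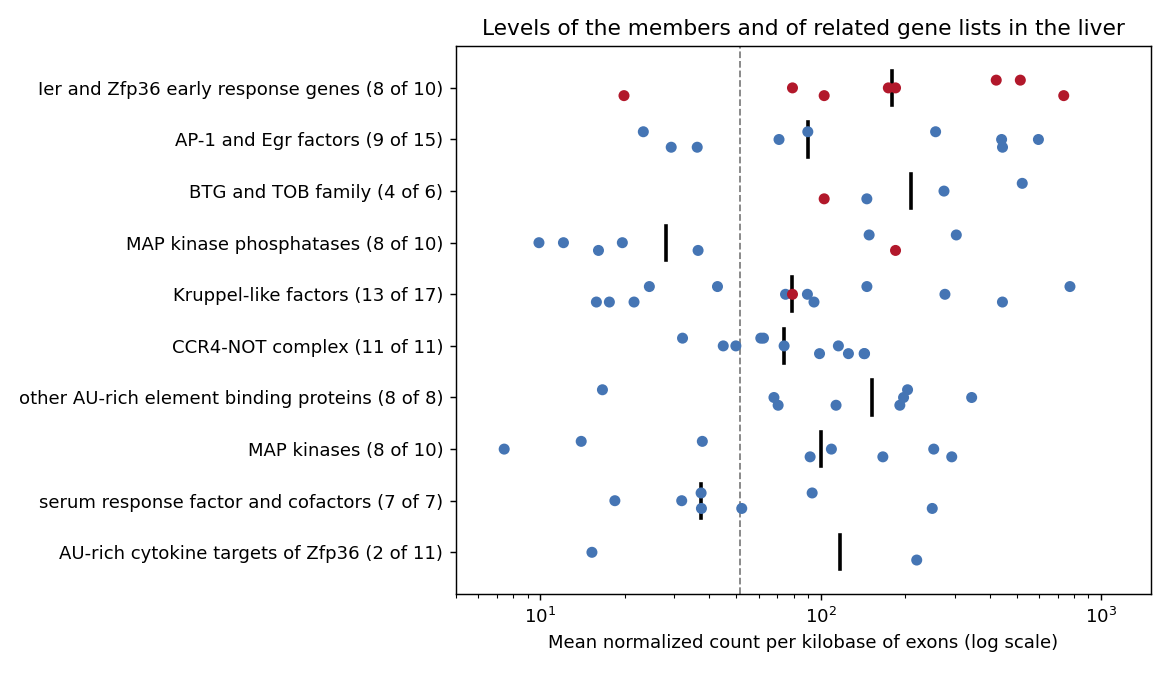
Mean normalized count per kilobase of exons (horizontal axis, log scale) of each listed gene in the members and in 9 related lists, with the number listed out of all genes of the list beside each name. Red points are members, blue points other genes, black bars the median of the listed genes and the dashed line the median of all genes (51.5 per kilobase); on this length Btg1 is lowest in its family, which does not hold by coding length, and Dusp1 is second in its own.

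Promoters were then read, since early response genes are known for serum response, cyclic AMP and AP-1 elements near the start site. RefSeq windows of the GRCm38.p6 build, from 250 bases before to 50 bases after the start, were found for 6 of the 8 listed members: Ier5, Zfp36, Zfp36l1, Btg1, Dusp1 and Klf6. Ier2 and Zfp36l2 had none. The sequences of 4 members are shown because each holds a different combination of motifs. Capitals mark TGACG (the half-site of the cyclic AMP response element), CACGTG (the E-box), GGGCGG (the GC box), TATAAA (the TATA box), TGANTCA (an AP-1-like site) and, in Zfp36, the CArG box, the core of the serum response element, where a motif on the other strand appears as its reverse complement. In Dusp1 the capitals mark the half-site, the E-box and the GC box, in Btg1 the half-site, the TATA box and the GC box, in Zfp36l1 the AP-1-like site and the TATA box, and in Zfp36 the CArG box and, overlapping its first base, a GC box on the other strand. The Dusp1 window lies at chr17:26508520-26508672, minus strand, that of Btg1 at chr10:96616801-96617000, plus strand, that of Zfp36l1 at chr12:80113014-80113153, minus strand, and that of Zfp36 at chr7:28379267-28379296, minus strand. The Zfp36 bases lie inside an exon of the GENCODE annotation, and the other windows lie outside annotated exons of their gene.
Dusp1: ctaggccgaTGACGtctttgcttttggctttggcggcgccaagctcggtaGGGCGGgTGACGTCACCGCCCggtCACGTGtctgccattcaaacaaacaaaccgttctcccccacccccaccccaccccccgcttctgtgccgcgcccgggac
Btg1: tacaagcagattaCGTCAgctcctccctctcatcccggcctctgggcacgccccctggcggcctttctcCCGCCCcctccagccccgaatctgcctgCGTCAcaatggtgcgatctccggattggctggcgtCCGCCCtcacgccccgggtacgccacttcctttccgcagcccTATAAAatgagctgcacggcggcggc
Zfp36l1: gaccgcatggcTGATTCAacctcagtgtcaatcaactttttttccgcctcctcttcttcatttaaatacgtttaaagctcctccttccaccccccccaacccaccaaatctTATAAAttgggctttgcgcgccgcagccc
Zfp36: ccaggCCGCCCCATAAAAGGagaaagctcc

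Positions are counted from the start site and name the first base of a match. Dusp1 held the full palindrome TGACGTCA at -143, which was found in 1.79% of all 32851 windows and in 2.90% of the 11980 windows of listed genes, and an E-box at -126. TGACG itself was found in Dusp1 and Btg1 of the 6 listed members and in 20.8% of all windows, or 30.3% of those of listed genes. In Dusp1 it overlaps the palindrome on both strands, at -143 and -140, with a further copy at -191. Btg1 held it at -187 and -103.

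The CArG box was found in Zfp36 alone of the 6 members, at -58, and in 1.63% of all windows (1.23% of those of listed genes). With 1 mismatch it was found in 3 of the 6 members, Zfp36, Dusp1 and Klf6, but also in 21.1% of all windows (16.9% of those of listed genes). Zfp36l1 held TGANTCA at -129 (7.81% of all windows, 5.29% of those of listed genes) and TATAAA at -29, and Btg1 held TATAAA at -26. TATAAA was found in 13.6% of all windows and in 7.67% of those of listed genes. The E-box was present in Dusp1 and, at -43, in Klf6 (7.15% of all windows, 9.90% of those of listed genes).

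The GC box was found in 5 of the 6 members, the exception being Zfp36l1. It was found in 35.7% of all windows and in 61.0% of those of listed genes. CCAAT, the box bound by NF-Y, was searched after the sequences had been seen. It was present in Ier5, Zfp36l1, Btg1 and Klf6 and in 37.4% of all windows, as of those of listed genes. The NF-kappaB site (8.46% of all windows) and the heat shock half-sites GAANNTTC (7.86%) were found in 0 of the 6 members. The windows held 15 to 31 CpG each, on both sides of the median of 20 in listed genes and above the median of 7 in all windows. None of the 10 motifs searched was found in all 6 members, and a match is a description of the letters and not of a bound factor.

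**Figure D4:**
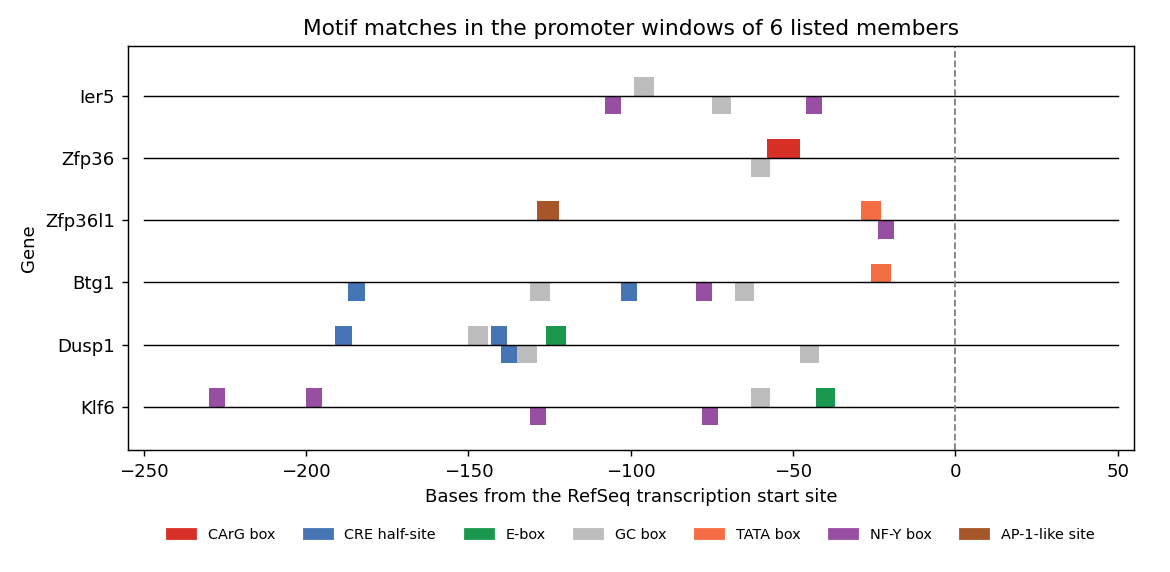
Matches to 7 motifs in the promoter windows of 6 listed members, by distance in bases from the RefSeq start site (dashed line); boxes above a line lie on the strand of the gene and boxes below it on the other strand. Each member has its own set of motifs, and the only CArG box is in Zfp36.

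The tissue was checked against marker genes. All 6 hepatocyte markers were listed, from 14034 per kilobase (Apob) to 519843 per kilobase (Alb), above each of the 8 listed members. All 5 Kupffer cell markers were listed, with Clec4f highest at 791 per kilobase, and so were the 4 endothelial and 4 stellate cell markers. Sox9 was the 1 listed cholangiocyte marker of 4 and Cd3e the 1 listed T cell marker of 4, and none of the 3 B cell markers (Cd79a, Cd79b and Ms4a1) was listed. S100a8 and S100a9 were the neutrophil markers listed, at 33.1 and 35.9 per kilobase, and 3 of the 4 erythroid markers were listed, with Hbb-bs highest at 743 per kilobase. The members are expressed by many cell types, and which cells of the liver held their mRNA was not measured.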

How the data were processed

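Liver RNA was sequenced after ribosomal RNA depletion with a directional kit, aligned by the authors with STAR 2.5.3a in its gene counting mode and normalized by the authors with DESeq2. The genome build and annotation release were not given in the sources used here. The deposited table holds, for each of 11779 genes, a mean normalized count over the livers (a pooled signal made by the authors), together with their fold change, standard error, statistic and p-value columns for the LL35 ASO and Luc ASO livers. Only the mean was used, since the other columns are the authors' own comparison. Depth per library and the number of reads behind each mean are unknown, so no interval, SD or test was computed.

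Members were matched by symbol. The members and lists were chosen with earlier results of these data known. Levels were divided by the union of exons from GENCODE M21 (25 genes had no length) using Python 3.11.15, pandas 2.3.3 and numpy 2.4.6. A gene's structure and UTRs came from its principal coding transcript. Motifs were searched on both strands of promoter windows and on the sense strand of 3' UTRs, after a check on simulated sequences. Named genes were all members, and for each related list the highest and lowest per kilobase and the unlisted ones; further genes named for orientation were chosen after their values were seen. Alternatives were other background genes, other lengths, the 250 upstream bases alone and other motif stringencies.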

Additional observations from a re-analysis of the deposited data

How the results depend on the processing

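The values are pooled means, so a shift has no replicate spread to be read against. The median percentile of the 8 listed members by mean normalized count, not corrected for length, was 74.5 among all listed genes, 69.8 among genes with a mean of at least 50 and 74.0 among protein-coding genes. By count per kilobase it was 81.7 over the union of exons, 79.2 over the longest transcript, 83.8 by coding length (taken from the annotation, a choice made after seeing the data) and 78.4 among genes with a mean of at least 50. With the absent genes counted as lowest, the median per kilobase was 29.3 for the AP-1 and Egr factors, 124 for the BTG and TOB family, 17.9 for the MAP kinase phosphatases, 42.8 for the Kruppel-like factors and 64.7 for the MAP kinases. No such median exists for the cytokine targets, since most are absent. By coding length, which shortens every gene, the medians were 290 for the AP-1 and Egr factors and 1080 for the BTG and TOB family. They were 69.0 for the phosphatases, 261 for the Kruppel-like factors, 316 for the CCR4-NOT complex and 459 for the other RNA-binding proteins. The median was 414 for the MAP kinases and 139 for serum response factor and cofactors. The value of 734 for the cytokine targets rests on 2 listed genes, Cxcl1 at 1432 and Il1b at 36.1. Allowing 1 mismatch raised the members with a CArG box from 1 to 3, and reading ATTTA in place of TTATTTATT raised the members with a motif from 4 to 7. The bases before the start alone gave the same number of members for each of the 9 motifs first searched. The ranks of members within the lists under other lengths were added after seeing the data. Identity between proteins was not run, for want of protein sequences here. No paired analysis was possible because the table holds no value for a single library.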

Other observations

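Ier3 and Ier5l, which have no level here, were read in the reference alone. The 3' UTR of Ier3, an immediate early gene linked to cell survival, is 613 bases long and held 4 copies of TATTTAT and 5 of ATTTA, or 8.16 ATTTA motifs per kilobase, above each of the 8 listed members. Its promoter window held an NF-kappaB site at -92 and a GC box at -96 that overlap. Ier5l has 1 exon, as do Ier2 and Ier5, and its 3' UTR of 1254 bases held 3 ATTTA motifs and no TATTTAT. Its promoter window was the only one of the 8 members with a window to hold GAANNTTC, at -234.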
